A study of Mus musculus with 24 samples.

Results

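The genes described here are 10 members of leptin, insulin, melanocortin and neuropeptide Y signalling, *Lepr*, *Insr*, *Mc4r*, *Mc3r*, *Npy1r*, *Npy5r*, *Stat3*, *Irs2*, *Socs3* and *Ptpn1*. They were chosen by symbol and not by their values, although earlier results of these data were known. All 10 were found among the 13998 genes of the table. Expression was measured by SAGE-Seq, which reads a short tag near the 3′ end of transcripts, in the whole hypothalamus of 24 adult male F2 mice, 1 library per mouse. The 12 *cast/cast* mice were homozygous for CAST/EiJ alleles over the subcongenic segment of proximal Chr 17, and the 12 *b6/b6* mice carried C57BL/6J alleles there. Both genotypes were *b6/b6* over the rest of the genome, and both had been given a choice of a carbohydrate/protein and a fat/protein diet for 10 d. They were then kept on standard chow for some weeks. Both were returned to the choice of diets for 48 h before the tissue was taken, after a short fast. None of the 10 genes lies on Chr 17, so the comparison asks whether these signalling genes differed in mice that differ at another chromosome.

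The mice had also been selected by their intake. The *cast/cast* mice were the high eaters of the carbohydrate/protein diet, at 77.8 to 106.6 kcal over 10 d, and the *b6/b6* mice the low eaters, at 27.4 to 41.0 kcal. Genotype and selected intake can therefore not be told apart in any difference between the groups. Whole tissue was used, so that fewer cells of a type and less RNA per cell cannot be told apart either.

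Leptin, released by fat tissue, acts through the long form of its receptor and JAK2 on the transcription factor STAT3, and insulin acts through its receptor and the IRS adaptors on PI3 kinase. Both hormones act on arcuate neurons that make POMC or AgRP and NPY. The POMC product α-MSH activates the melanocortin receptors MC3R and MC4R, which restrains feeding, whereas AgRP blocks them and NPY promotes feeding through the Y1 and Y5 receptors. SOCS3 and the phosphatase PTP1B, encoded by *Ptpn1*, damp leptin and insulin signalling.

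What was counted is a 27-base tag next to the last NlaIII site of a transcript. The tags below were read from GENCODE transcripts of GRCm38, the authors' build, within the transcript ends given in the deposited table, and the capitals mark the NlaIII site, CATG. They are shown for genes on which the results turn and for the 3 genes, *Lepr*, *Stat3* and *Irs2*, with more than 1 possible tag. The deposited counts are given per gene, so the 3 *Lepr* transcripts, the long receptor form among them, are not told apart.
Lepr, long form: CATGtataatgtgttcttttattgttg
Lepr, transcript 2: CATGgtgaagaacatttgagtgcacca
Lepr, transcript 3: CATGttctcaagcctgttcatcctttc
Insr: CATGtataatacaggctaattacttgt
Npy1r: CATGatttagactcagaaaagatactt
Npy5r: CATGatataaatttataggagaaagat
Mc3r: CATGatacagacatcatttctctcttg
Ptpn1: CATGactcttctgggaggggaagaacc
Stat3, deposited end: CATGgctagattcagtgactcaaagcc
Stat3, GENCODE end: CATGtagcccctaacaaatacacacat
Irs2, deposited end: CATGcgcagagagacctccgtgggttt
Irs2, GENCODE end: CATGgatgccctccttaatagccatat

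Each of these tags was found in transcripts of 1 gene. The long-form *Lepr* tag lies at chr4:101815313-101815339 on the plus strand, in the last of 19 exons, and the others at chr4:101813350-101813376 and chr4:101792175-101792201. The *Insr* tag is at chr8:3150958-3150984 on the minus strand, in the last of 21 exons. The *Npy1r* tag is at chr8:66706674-66706700 on the plus strand and the *Npy5r* tag at chr8:66680247-66680273 on the minus strand. These receptor genes are neighbours on opposite strands, with start sites 9328 bases apart, but each has its own tag. The *Mc3r* tag is at chr2:172251039-172251065 and the *Ptpn1* tag at chr2:167978776-167978802, both on the plus strand. All of these lie in the 3′ UTR of the last exon.

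*Irs2* and *Stat3* carry a limit. For *Irs2* the transcript end in the deposited table leaves out 2283 bases that the GENCODE transcript has, and the last site before that end, at chr8:11004724-11004750 on the minus strand, lies in the coding part of exon 1 of 2. The GENCODE transcript has its last site at chr8:10984715-10984741. The *Stat3* tag within the deposited end lies at chr11:100887393-100887419 on the minus strand and is shared by 2 of its 3 transcripts. For 1 of these GENCODE has 1712 further bases, with a last site at chr11:100885359-100885385. The deposited end of the remaining *Stat3* transcript runs 1426 bases past the GENCODE end, so its tag is not printed. Which of these tags were counted is not given in the sources used here, so the levels of *Irs2* and *Stat3* relative to other genes are uncertain.

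Between 7754202 and 13082873 tag hits were counted per mouse, with medians of 10032338.5 for *b6/b6* and 10383038 for *cast/cast* mice. Values are normalized counts, that is tag hits divided by the library's size factor, and are given as mean ± SD for 12 mice per genotype. Hypothalamic markers were present in every library, with 14 of 17 listed genes in the table and summed levels of 6486 to 33729. Some libraries stood apart. In *b6/b6* mice 6 and 12 the summed level of 7 cerebral cortex markers was 1937 and 1948, against 295.9 to 673.0 in the other 22 mice, and that of 3 blood genes was 4999 and 1704, against 104.8 to 1044. Another 5 mice, namely *b6/b6* mouse 1 and *cast/cast* mice 4, 5, 6 and 8, lay at one end of the first principal component of the genes outside Chr 17, which held 33.6% of the variance. For the members and the pathway gene *Pdpk1*, results that rest on these libraries are given with and without them. For the other pathway genes, described below, only counts of calls are given without them. Whether the levels and fold changes of those genes rest on these libraries was not tested.

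No member was called between genotypes at the criteria used here, an unadjusted P of at most 0.01 in limma together with means at least 1.5-fold apart. Of all genes, 1.49% were called at these criteria, so a count of 0 of 10 is near the background. No member had an unadjusted P of at most 0.05 in limma, which 8.13% of all genes had. With edgeR 1 member had one, *Irs2*, at an unadjusted P of 0.0402 (quasi-likelihood test, adjusted P = 0.407), and with edgeR and with DESeq2, which called 2.79% and 2.82% of all genes, 0 members were called. An adjusted P of at most 0.05 was reached by 0 members and 0.572% of all genes. The genotypes overlapped for all 10 members, and among all genes only 0.336% showed no overlap. The median log2 fold change of the members was -0.15, beside -0.02 for all genes.

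**Figure D1:**
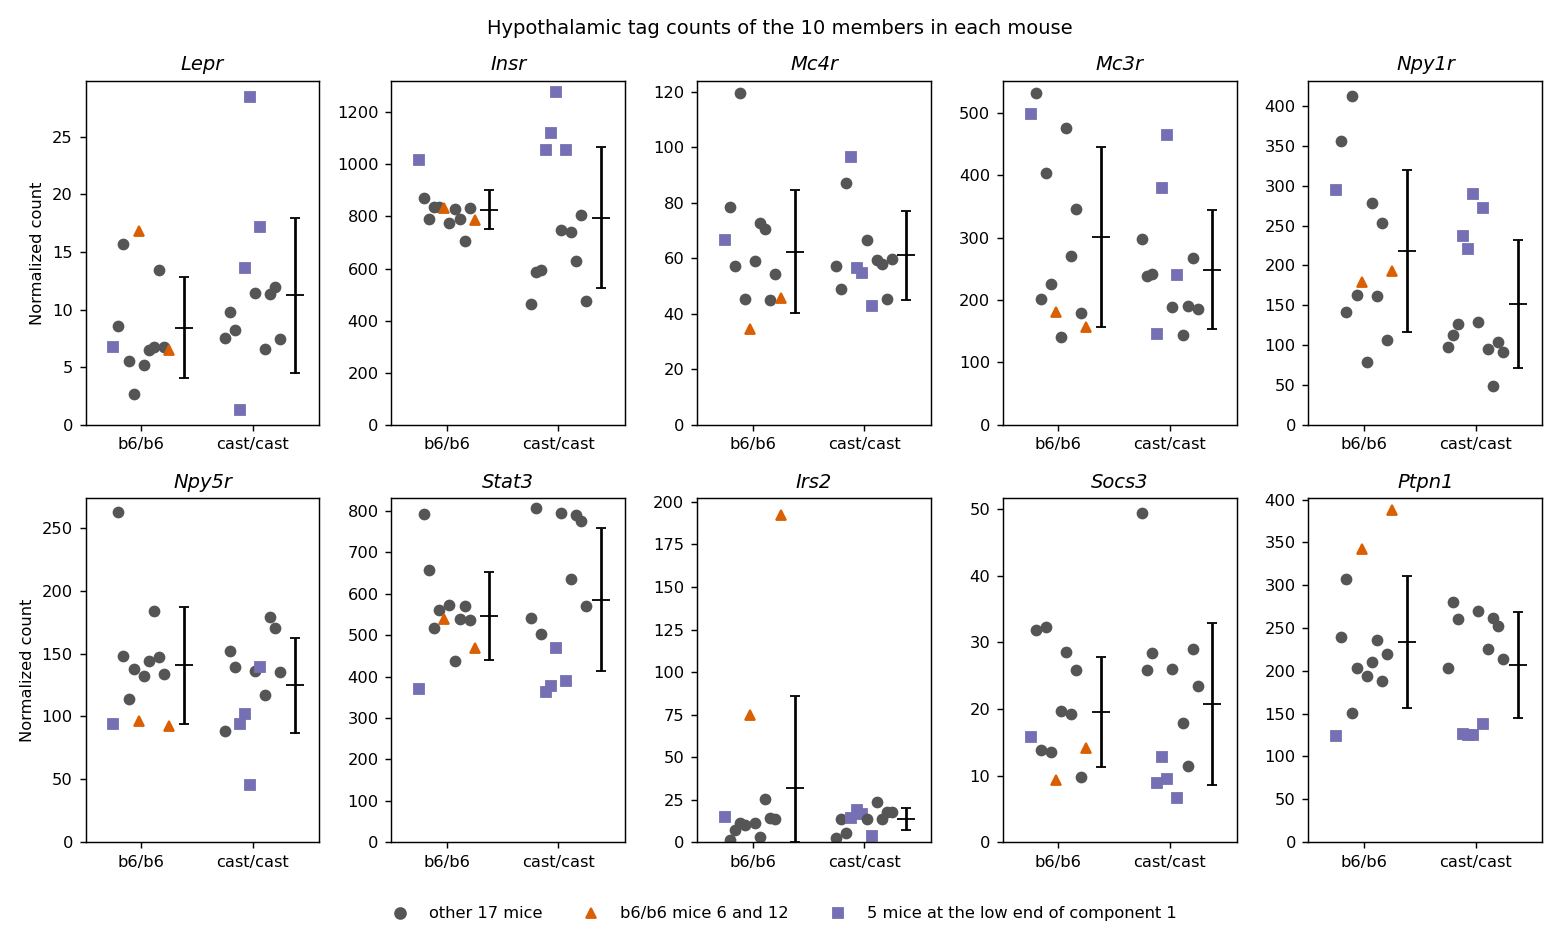
Normalized counts (linear axis from 0) of the 10 members in each of 12 b6/b6 and 12 cast/cast mice, 1 point per mouse, with mean ± SD at the right of each group (the lower bar of Irs2 in b6/b6 mice stops at 0). Triangles are b6/b6 mice 6 and 12 and squares the 5 mice at the low end of the first component; the genotypes overlap in every panel, and the 4 squares of the cast/cast group are the 4 highest values of Insr and the 4 lowest of Ptpn1 in that group.

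The receptors were examined first. *Npy1r*, which encodes the Y1 receptor for NPY, showed the lowest P of the members. In *b6/b6* mice it ranged from 78.9 to 413.1 with a median of 186.5, and in *cast/cast* mice from 48.6 to 289.6 with a median of 119.3. In all, 3 *b6/b6* mice were above every *cast/cast* mouse, and 8 of the 12 *cast/cast* mice were below the *b6/b6* median. The means were 218.3 ± 102 for *b6/b6* and 152.1 ± 80.3 for *cast/cast* mice, with a log2 fold change of -0.55 (SE 0.28, 95% interval -1.13 to 0.03). This did not pass the test (limma, P = 0.0618, adjusted P = 0.614).

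The *cast/cast* values of *Npy1r* fell into separate ranges. Mice 4, 5, 6 and 8, those at the end of the first component, had 221.2 to 289.6, whereas the other 8 had 48.6 to 128.7. Without the 5 mice at that end the log2 fold change was -0.96 (limma, P = 0.00166, adjusted P = 0.0729) and *Npy1r* was called lower in *cast/cast* mice, in a comparison in which 2.14% of all genes were called lower. Without *b6/b6* mice 6 and 12 as well it was -0.96 (P = 0.00312, adjusted P = 0.0734), with 2.01% of all genes called lower. Leaving out *b6/b6* mice 6 and 12 alone gave -0.57 (P = 0.0770), and then 0 members and 0.982% of all genes were called. With 2 principal components as covariates it was -0.51 (P = 0.00854, adjusted P = 0.411), not called because the means are within 1.5-fold. The call therefore depended on whether those 5 libraries were kept, and what set them apart was not tested. They were chosen after the data were seen, and 4 of them hold the highest *cast/cast* values of *Npy1r*. Leaving them out lowers the *cast/cast* mean by construction, so the P values without them describe and do not test.

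The study number, a label the authors gave each mouse, was unevenly spread over the genotypes, so *Npy1r* was also compared within ranges of that number. Its median was 120.5 for *cast/cast* and 269.5 for *b6/b6* mice. With the study number as a covariate the log2 fold change of *Npy1r* was -0.41 (limma, P = 0.147, adjusted P = 0.472). Below 150 the means were 144.1 for 5 *b6/b6* and 143.9 for 7 *cast/cast* mice. Above 150 they were 271.3 for 7 *b6/b6* and 163.5 for 5 *cast/cast* mice, with a log2 fold change of -0.77 (limma, P = 0.0280, adjusted P = 0.891). The lower mean in *cast/cast* mice was thus seen above 150, while the means below 150 were nearly equal, but the difference between the ranges did not pass its own test (limma, interaction P = 0.248, adjusted P = 0.565). Across all genes 13.5% had an interaction P of at most 0.05, and 2 members did, *Irs2* and *Mc3r*.

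*Npy5r*, encoding the Y5 receptor, lay close to equal in the 2 genotypes. It ranged from 92.5 to 262.7 with a median of 135.7 for *b6/b6* and from 45.1 to 178.8 with a median of 135.8 for *cast/cast* mice. The means of 140.5 ± 47.0 and 124.8 ± 37.6 differed by less than the spread between mice (log2 fold change -0.19, 95% interval -0.59 to 0.22, limma P = 0.356).

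The melanocortin receptors also overlapped widely. *Mc3r*, a receptor for α-MSH that is also found on AgRP neurons, ranged from 140.1 to 531.6 with a median of 248.1 for *b6/b6* and from 144.6 to 465.3 with a median of 239.4 for *cast/cast* mice. Again 3 *b6/b6* mice exceeded all *cast/cast* mice, but the difference of the means, 300.8 ± 144 against 249.0 ± 94.97, was within the spread (log2 fold change -0.21, SE 0.24, limma P = 0.393). *Mc4r*, the receptor through which α-MSH restrains feeding, had a median of 58.2 for *b6/b6* and 57.5 for *cast/cast* mice. Its range was 34.6 to 119.6 for *b6/b6* and 42.9 to 96.5 for *cast/cast* mice, so that the *cast/cast* values fell within those of *b6/b6*. The log2 fold change of *Mc4r* was 0.00 with a 95% interval of -0.36 to 0.37, which allows a change between 0.777-fold and 1.29-fold.

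*Insr*, the insulin receptor, was the most highly counted member. In *b6/b6* mice it was tightly grouped, from 705.6 to 1018 with a median of 831.8 (825.6 ± 74.2). In *cast/cast* mice it ranged from 463.9 to 1279 with a median of 743.6 (795.9 ± 270). As many as 4 *cast/cast* mice were above every *b6/b6* mouse and 5 were below every *b6/b6* mouse, so that the means were alike (log2 fold change -0.12, 95% interval -0.43 to 0.19, limma P = 0.420) while the *cast/cast* values were spread to both sides. The 4 high mice were again 4, 5, 6 and 8, at 1054 to 1279, and the other 8 had 463.9 to 803.9. Without the 5 mice at the end of the first component the log2 fold change of *Insr* was -0.38 (limma, P = 0.00306, adjusted P = 0.0941), but it was not called because the ratio of means stayed within 1.5. The 4 high mice were among those left out, so this P too describes and does not test.

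*Lepr*, the leptin receptor, had few tags. The hits per mouse were 3 to 18 for *b6/b6* and 1 to 24 for *cast/cast* mice. Normalized, these were 2.71 to 16.8 with a median of 6.77 for *b6/b6* and 1.27 to 28.5 with a median of 10.6 for *cast/cast* mice. The lowest and the highest value of all 24 mice were both from *cast/cast* mice, numbers 4 and 6, which both belong to the 5 at the end of the first component. The log2 fold change of 0.30 (SE 0.32, 95% interval -0.36 to 0.96, limma P = 0.363) was not distinguishable from 0 at this depth, and counting error alone gives a coefficient of variation of 33.8% at the *b6/b6* mean of 8.44.

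Among the signal relays, *Stat3*, the transcription factor activated by leptin, ranged from 371.0 to 793.1 with a median of 539.7 for *b6/b6* and from 363.2 to 808.4 with a median of 556.5 for *cast/cast* mice. The means of 547.2 ± 106 and 585.1 ± 173 gave a log2 fold change of 0.06 (SE 0.15, limma P = 0.697). As with *Insr*, the *cast/cast* mice split, with 363.2 to 470.0 in mice 4, 5, 6 and 8 and 503.7 to 808.4 in the other 8, here with the 4 mice on the low side.

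*Irs2*, an adaptor of the insulin receptor, was the member most dependent on single libraries. In *cast/cast* mice it ranged from 2.15 to 23.6 with a median of 13.7, and in *b6/b6* mice from 1.23 to 192.5 with a median of 12.5. *b6/b6* mice 12 and 6 had 192.5 and 74.8, and no other mouse of either genotype exceeded 25.1. These are the 2 libraries with high cortex and blood marker sums, and the part of those tissues in the *Irs2* level was not tested. The means were 31.6 ± 54.2 for *b6/b6* and 13.4 ± 6.53 for *cast/cast* mice, a ratio of 0.424, but the log2 fold change was -0.31 with a 95% interval of -1.37 to 0.76 (limma, P = 0.561). With edgeR it was -1.21 (P = 0.0402, adjusted P = 0.407), and below study number 150, which holds both mice, it was -1.68 in limma (P = 0.0268, adjusted P = 0.277). Without those 2 mice the *b6/b6* mean was 11.2 ± 6.66 (n = 10) and the log2 fold change was 0.29 (P = 0.474), in the opposite direction.

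Neither inhibitor was called. *Socs3*, which leptin induces and which blocks the receptor complex, ranged from 9.34 to 32.3 with a median of 17.6 for *b6/b6* and from 6.67 to 49.5 with a median of 20.7 for *cast/cast* mice. Its means were 19.5 ± 8.25 and 20.8 ± 12.2 (log2 fold change -0.01, 95% interval -0.61 to 0.58, limma P = 0.967). *Ptpn1* ranged from 124.4 to 388.3 with a median of 215.1 for *b6/b6* and from 124.6 to 280.5 with a median of 219.5 for *cast/cast* mice. Its means were 233.8 ± 77.0 and 206.7 ± 62.2 (log2 fold change -0.18, 95% interval -0.57 to 0.22, limma P = 0.367). The 2 highest *Ptpn1* values were those of *b6/b6* mice 12 and 6. In *cast/cast* mice 4, 5, 6 and 8 *Ptpn1* was 124.6 to 138.2, below the 203.4 to 280.5 of the other 8.

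**Figure D2:**
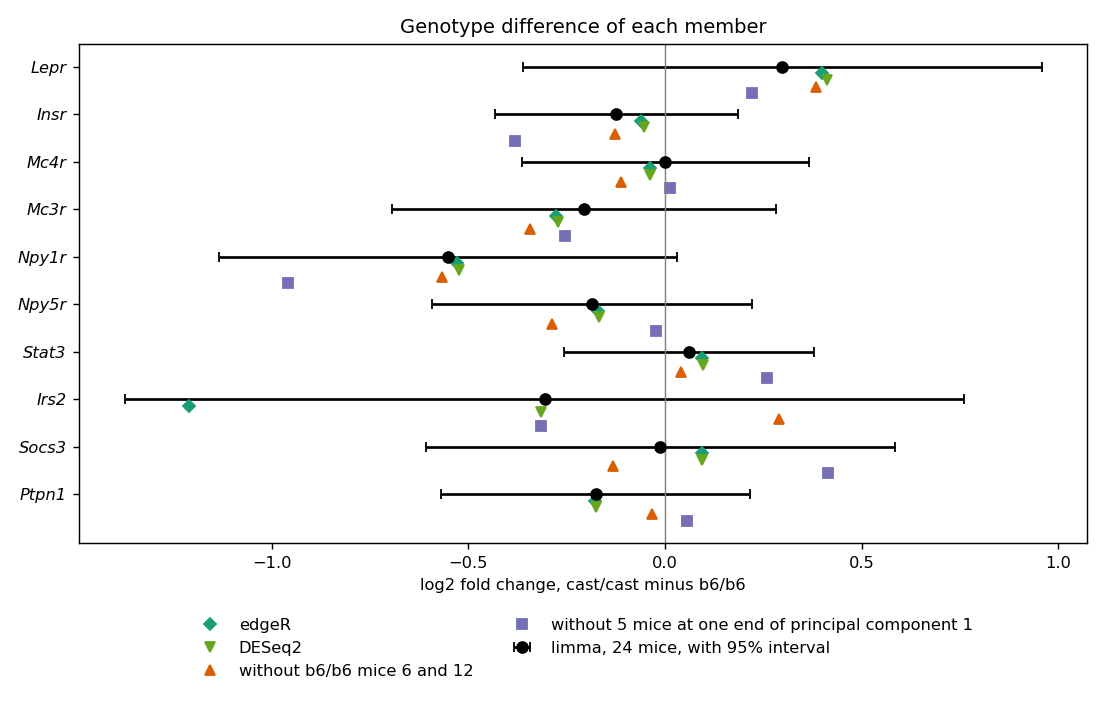
Log2 fold change (cast/cast minus b6/b6) of each member: the filled circle and bar are the limma estimate over 24 mice with its 95% interval, and the other symbols the estimate with edgeR, with DESeq2, without b6/b6 mice 6 and 12, and without the 5 mice at one end of the first component. Every interval includes 0; Npy1r lies at -0.55 and moves to -0.96 without the 5 mice, and Irs2 moves from -0.31 to 0.29 without b6/b6 mice 6 and 12.

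The first component was described for all members, since it separated the *cast/cast* mice in several of them. Residuals from the genotype means correlated with it at r = 0.93 for *Ptpn1*, -0.72 for *Npy1r*, -0.63 for *Insr*, -0.63 for *Mc3r* and 0.57 for *Stat3*, and at absolute values below 0.5 for the other 5, over 24 mice. The component was computed from the same libraries and genes, so these values describe and do not test. The median absolute r of all genes was 0.495. *Ptpn1* exceeded 98.4% of genes in this respect and *Npy1r* 76.6%, whereas *Lepr* exceeded 6.39%. The 5 mice at its end came from both ranges of the study number, and their summed hypothalamic marker levels, 6486 to 18452, overlapped the 11786 to 33729 of the 17 mice that did not stand apart. The ranges of these sets of mice overlapped for all 12 marker lists examined. Across the 24 mice, as deviations from the genotype means and with no test, the summed hypothalamic marker level correlated with *Insr* at r = -0.74 and with *Ptpn1* at 0.62, the oligodendrocyte sum with *Insr* at -0.60, *Npy1r* at -0.67 and *Ptpn1* at 0.64, the astrocyte sum with *Insr* at 0.59, and the tanycyte sum with *Mc3r* at 0.67. The part of these cell types in the members' levels was not tested.

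In the order of mean level over 24 mice, *Insr* (810.7) was followed by *Stat3* (566.2), *Mc3r* (274.9), *Ptpn1* (220.3), *Npy1r* (185.2), *Npy5r* (132.7), *Mc4r* (61.7), *Irs2* (22.5), *Socs3* (20.1) and *Lepr* (9.85). Each transcript yields 1 tag, so transcript length does not enter these levels, and those of *Irs2* and *Stat3*, with the comparisons that involve them, carry the limit given above. *Insr* was above *Stat3* in 19 of 24 mice, and *Stat3* above *Mc3r* in 21 of 24 (permutation tests, adjusted P = 0.000684 and 4.5e-05 over 9 neighbouring pairs). *Mc3r*, *Ptpn1*, *Npy1r* and *Npy5r* formed a run whose neighbours did not differ beyond their spread (adjusted P = 0.189, 0.136 and 0.134). *Npy5r* was above *Mc4r* in 21 of 24 mice (adjusted P = 4.5e-05), and *Mc4r* above *Irs2* in 22 of 24 (adjusted P = 6e-05). *Irs2* exceeded *Socs3* in only 9 of 24 mice despite its higher mean (adjusted P = 0.218), and *Socs3* exceeded *Lepr* in 18 of 24 (adjusted P = 0.000684).

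The members also differed in how far mice of 1 genotype varied. The within-genotype SD on the log2 scale was 1.36 for *Irs2*, larger than in 96.0% of 770 genes of like level (means within 1.2-fold), and without *b6/b6* mice 6 and 12 the SD in *b6/b6* mice fell from 1.70 to 1.02. *Npy1r* had an SD of 0.74, larger than in 83.4% of 1068 genes of like level, and *Mc3r* one of 0.61, larger than in 71.4%. *Mc4r* varied little for its level, with an SD of 0.41, larger than in 13.9% of 899 genes.

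Pairs of members were compared within the 17 mice that remained without the libraries standing apart, as deviations from the genotype means. Those 17 were chosen after the data were seen, so the P values within them describe and do not test. No P over all 24 mice is given, and how many other gene pairs are as alike was not examined. For 3 of 45 pairs P stayed at or below 0.05 after adjustment (Pearson's r), and these pairs linked the same 3 genes. *Mc3r* and *Npy1r* correlated at r = 0.81 (permutation P = 0.00061, adjusted P = 0.0191) with a Spearman rho of 0.80 (P = 0.00175, adjusted P = 0.0197), and at r = 0.69 without the 2 farthest mice. Within genotypes r was 0.95 for 9 *b6/b6* and 0.25 for 8 *cast/cast* mice, so that the relation rested on the *b6/b6* mice. *Mc3r* and *Socs3* correlated at r = 0.74 (permutation P = 0.00085, adjusted P = 0.0191; rho = 0.83, P = 0.00028, adjusted P = 0.0126), and at 0.85 without the 2 farthest mice. *Npy1r* and *Socs3* correlated at r = 0.72 (permutation P = 0.00177, adjusted P = 0.0266), with a rho of 0.80 (P = 0.00074, adjusted P = 0.015) and an r of 0.83 without the 2 farthest mice. For these last pairs r was 0.80 and 0.78 in *b6/b6* mice and 0.73 and 0.68 in *cast/cast* mice. In the 8 mice below study number 150 r was 0.58, 0.56 and 0.53 for the 3 pairs in this order, and in the 9 mice above it was 0.82, 0.94 and 0.94. By rank, *Npy5r* and *Ptpn1* were also related (rho = 0.73, permutation P = 0.001, adjusted P = 0.015), although not by Pearson's r (r = 0.57, P = 0.0284, adjusted P = 0.204), with an r of 0.54 without the 2 farthest mice. Over all 24 mice, which include the libraries that stood apart, r was 0.65 for *Mc3r* and *Npy1r*, 0.33 for *Mc3r* and *Socs3* and -0.08 for *Npy1r* and *Socs3*, so that the last relation was not seen with all mice included. The *cast/cast* mice 4, 5, 6 and 8, which had high *Npy1r* with *Socs3* of 6.67 to 12.7, were among the mice left out of the 17.

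**Figure D3:**
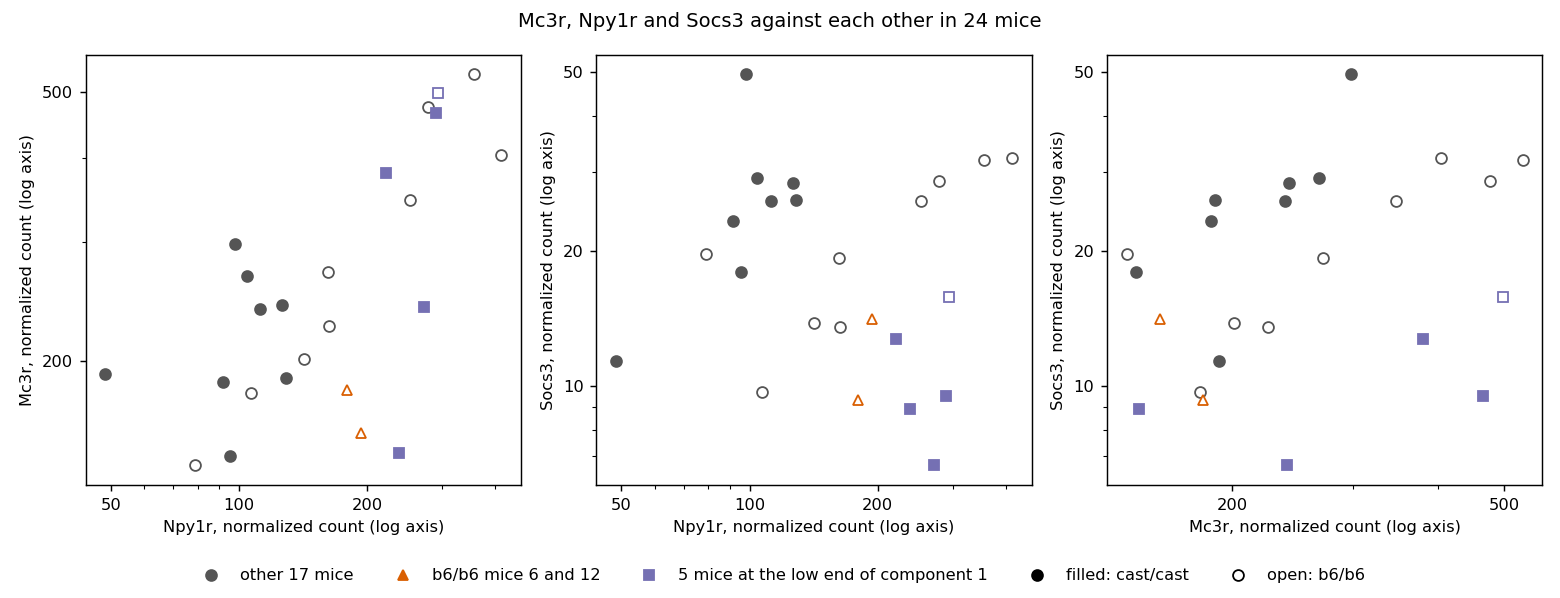
Normalized counts of Mc3r, Npy1r and Socs3 against each other (both axes logarithmic), 1 point per mouse, filled for cast/cast and open for b6/b6, with triangles for b6/b6 mice 6 and 12 and squares for the 5 mice at the low end of the first component. Among the other 17 mice (circles) the genes rise together, with r of 0.81, 0.72 and 0.74 after removal of the genotype means; the squares lie at low Socs3 for their Npy1r.

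Over all 24 mice, again as deviations from the genotype means, the gene whose pattern was most like that of *Insr* was *Hnrnpa3* (r = 0.95), followed by *Zfp532* (0.93) and *Npas3* (0.91). That of *Ptpn1* was most like *Zfp187* (0.93), *4932438A13Rik* (0.92) and *Nedd4* (0.92), that of *Mc3r* like *4732456N10Rik* (0.92), *Gpx3* (0.85) and *Rnf167* (0.85), and that of *Npy1r* like *Actn1* (0.90), *Cc2d1b* (0.88) and *Mdp1* (0.88). *Lepr* had no partner above 0.73 (*Cdh1*). These are the highest values among all genes over mice that share the first component, and no test was made of them.

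Beyond the members, 102 symbols of the same pathways were listed by role, again with earlier results known, and 88 of them were in the table. Of these, 1 was called, lower in *cast/cast* mice, and 0 higher, against 1.01% and 0.471% of all genes. At an unadjusted P of at most 0.05, 2 were higher and 8 lower, where 3.76% and 4.37% of all genes were. The called gene was *Pdpk1*, the kinase PDK1 that phosphorylates AKT downstream of the insulin receptor, and it lies within the CAST segment. Tags were aligned to reference transcripts. Whether CAST sequence differs in the tags of pathway genes in the segment was not examined, so their counts need not follow expression. Outside that segment 106 of 13587 genes (0.78%) were called in either direction, against 208 of all 13998 genes (1.49%). Calls were thus concentrated among the 411 genes of the segment, so a call there says little about the pathway. *Pdpk1* lies at chr17:24073680-24141594 and was 195.4 ± 165 for *b6/b6* and 100.3 ± 37.1 for *cast/cast* mice (ratio 0.513, log2 fold change -0.79, limma P = 0.00778, adjusted P = 0.466). Its range was 108.6 to 666.7 for *b6/b6* and 44.9 to 160.6 for *cast/cast* mice, and it was not called without *b6/b6* mice 6 and 12, when 0 of the 88 genes were called. The other pathway genes in the segment were *Tsc2*, an inhibitor of mTORC1, with 1146 ± 484 for *b6/b6* and 1075 ± 740 for *cast/cast* mice (limma, P = 0.363), and *Igf2r*, which clears IGF2, with 94.8 ± 22.5 and 79.2 ± 27.5 (P = 0.124).

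By role, the insulin relay list had a median log2 fold change of -0.26 over 26 genes, beside -0.02 for all genes, of which 1 was called lower, and 1 was higher and 3 lower at an unadjusted P of at most 0.05 (of all genes, 526 were higher and 612 lower of 13998). The genes without a call are given only with all mice included. These genes were named after their values were seen. Next to *Pdpk1* these were *Rictor*, a subunit of mTORC2, with 75.8 ± 67.3 for *b6/b6* and 40.0 ± 17.3 for *cast/cast* mice (P = 0.0224), *Pik3r3*, a regulatory subunit of PI3 kinase, with 310.8 ± 189 and 201.8 ± 92.5 (P = 0.0367), and *Tsc1*, an inhibitor of mTORC1, with 1576 ± 255 and 1926 ± 441 (P = 0.0482). The adjusted P of each was above 0.5 in limma. The inhibitors had a median of -0.17 over 18 genes, with 0 called and 3 lower at an unadjusted P of at most 0.05, namely the receptor phosphatase genes *Ptprf* (987.6 ± 203 and 746.7 ± 209) and *Ptprj* (293.9 ± 92.8 and 219.1 ± 94.98) and the deacetylase gene *Sirt1* (42.4 ± 14.9 and 30.8 ± 14.9).

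The receptors and receptor partners had a median of 0.01 over 11 genes, with 0 called. At an unadjusted P of at most 0.05, *Sdc3*, a syndecan that aids AgRP at melanocortin receptors, was higher, with 4845 ± 1136 for *b6/b6* and 6274 ± 1477 for *cast/cast* mice (P = 0.0159, adjusted P = 0.543 in limma). *Atrn* and *Atrnl1*, of which attractin is an accessory receptor for agouti, were lower, at 197.4 ± 111 and 131.5 ± 29.9 for *Atrn* and 232.4 ± 143 and 148.5 ± 32.7 for *Atrnl1*. The 10 genes of the JAK-STAT and leptin relay and the 13 of the melanocortin relay had medians of -0.06 and -0.00, with 0 at an unadjusted P of at most 0.05 in each. *Jak2* was 487.0 ± 312 for *b6/b6* and 466.7 ± 169 for *cast/cast* mice, and *Sim1*, a transcription factor of melanocortin-responsive paraventricular neurons, 218.2 ± 61.9 and 222.6 ± 52.2.

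The ligands, 10 of 15 listed genes in the table, had a median of 0.14 and 0 at an unadjusted P of at most 0.05. *Agrp* was 794.0 ± 373 for *b6/b6* and 1458 ± 1223 for *cast/cast* mice (log2 fold change 0.17, SE 0.61, limma P = 0.786), *Pomc* 2443 ± 1716 and 2359 ± 1136 (P = 0.795), and *Npy* 75.8 ± 124 and 38.2 ± 27.0 (P = 0.551). The range of *Agrp* was 318.7 to 1655 for *b6/b6* and 15.1 to 3686 for *cast/cast* mice.

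**Figure D4:**
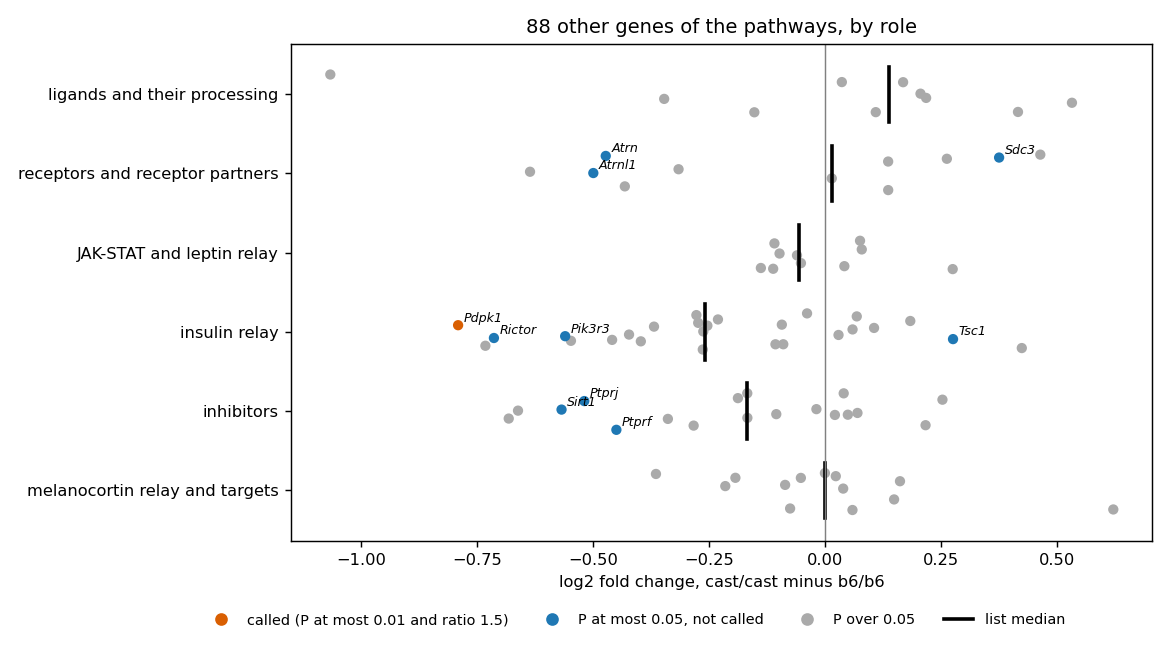
Log2 fold change (cast/cast minus b6/b6, limma) of the 88 other pathway genes in 6 lists by role, 1 point per gene with random vertical scatter, the bar marking each list's median. Pdpk1 is the only called gene, at -0.79, and the named blue points are the 9 further genes with an unadjusted P of at most 0.05.

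Finally, the members were compared with intake within each genotype, since the groups had been selected for divergent intake. This was intake in the 10 d test, before the period on chow. Intake in the 48 h before the tissue was taken is not given in the labels. With carbohydrate/protein kcal, 3 of 20 relations had an unadjusted P of at most 0.05 and 0 an adjusted one, over 12 mice each. The share of all genes with such relations was not computed, here or with total kcal. The counts can therefore not be set against a background. The strongest was *Npy5r* in *b6/b6* mice, r = 0.72 (permutation P = 0.00955, adjusted P = 0.191) and rho = 0.80 (P = 0.00297, adjusted P = 0.0594), with r = 0.77 without the 2 mice farthest from the median intake. Within the 9 *b6/b6* mice that did not stand apart r was 0.57 (exact permutation P = 0.0959, adjusted P = 0.526). *Irs2* in *b6/b6* mice, at r = -0.66 over 12 mice (permutation P = 0.0236, adjusted P = 0.236), gave r = -0.21 without mice 6 and 12 (n = 10, permutation P = 0.568, adjusted P = 0.670 over the 10 members) and -0.14 in the 9 mice. *Stat3* in *b6/b6* mice gave r = 0.61 (permutation P = 0.0385, adjusted P = 0.257) over 12 mice and 0.62 in the 9 mice. *Ptpn1* in *b6/b6* mice was the 1 relation with an unadjusted P of at most 0.05 in the mice that did not stand apart, at r = 0.70 over 9 mice (exact permutation P = 0.0256, adjusted P = 0.512), whereas over 12 mice r was -0.13 (permutation P = 0.684, adjusted P = 0.964).

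With total kcal as the measure of intake, *Insr* in *cast/cast* mice was the only relation with an adjusted P of at most 0.05, and by rank only (adjusted P = 0.014 for rho and 0.151 for r, permutation tests over 12 mice). The rank test with total kcal was not planned, and its adjustment covers its own 20 relations, not the other measures and coefficients tried. Since *Insr* formed separate ranges in these mice, the relation was taken within the 8 *cast/cast* mice that did not stand apart, where r was -0.78 (exact permutation P = 0.0250, adjusted P = 0.497) and rho -0.88 (exact permutation P = 0.00724, adjusted P = 0.145). The *cast/cast* mice that ate more in total thus had fewer *Insr* tags over the 12 mice and within the 8. In the 8 mice this did not pass the correction over 20 relations. Those 8 are part of the 12 and were chosen after the data were seen, so they are no separate test. In *b6/b6* mice r was 0.28 (permutation P = 0.394, adjusted P = 0.800). Neither range of the study number held 6 of these 8 *cast/cast* mice, so the relation was not taken within ranges.

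**Figure D5:**
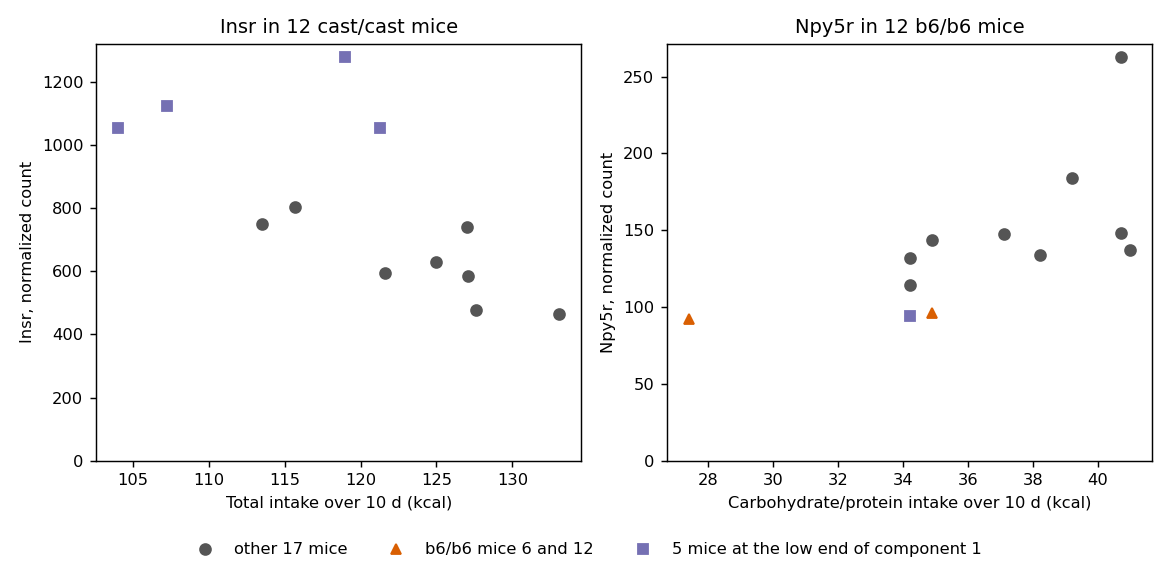
Left, Insr normalized count against total intake over 10 d (kcal) in 12 cast/cast mice; right, Npy5r normalized count against carbohydrate/protein intake over 10 d (kcal) in 12 b6/b6 mice, 1 point per mouse. Insr falls with total intake among the 8 circles (rho -0.88), with the 4 squares above them, and Npy5r is lowest in the triangles and the square.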

How the data were processed

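Hypothalamus libraries of 24 mice were analysed, grouped by the genotype in the deposited labels. The deposited signal values count, for each gene, the tags that the authors aligned to mouse RefSeq transcripts (build GRCm38) and scaled by a DESeq size factor. The authors' comparison columns in the same table (p-value, fold ratio and log2 fold change) were not used. In every library 100% of values were whole multiples of 1 step (tolerance 0.01), which gave tag hits. The table's 19529 rows held 13998 genes, the lowest mean being 6.03. No 2 libraries of 276 pairs were alike (lowest chi-square per degree of freedom 15.4).

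Log2(normalized count + 1) was fitted with limma 3.58.1 (eBayes with trend), *cast/cast* against *b6/b6*, for genes with a mean of at least 5, with Benjamini-Hochberg adjustment over all genes. Fold changes are on that scale, which understates those of low genes such as *Lepr*. Calls required P of at most 0.01 and a mean ratio of at least 1.5. Alternatives were edgeR 4.0.16 and DESeq2 1.42.0 on the tag hits, other pseudocounts (0.5, 5), a minimum mean of 20 or none, rescaled libraries, study number (split at 150) and other thresholds. Leaving out libraries and using 2 principal components were chosen after seeing the data, as was the limit of -0.2 on the first component. The rank test of members with total kcal was not among the planned settings. The plain genotype fits with limma, edgeR and DESeq2 were tested on simulated data, in which genes varied independently and no library stood apart. Fits with covariates, an interaction, fewer mice or rescaled libraries were not tested in this way. Correlations used 2-sided permutation tests with 100000 resamples (every pairing below 10 mice), and neighbouring levels a sign-flip permutation (smallest possible P 1e-05). Tags carry no molecular identifiers, so counting errors cover counting only, and 3 hits were taken as the floor.

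The members and the gene lists were chosen with earlier results of these data known. The genes named by rule were the members, the pathway genes called or within the CAST segment (taken as 3 to 46 Mb of Chr 17), and per member the genes with the highest r (the highest 3 were computed for each); those of *Irs2* are not reported here. Other pathway genes were named after their values were seen.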

Additional observations from a re-analysis of the deposited data

Results flagged for a closer look

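The genotype difference of 2 members differed between mice with a study number below and above 150 at an unadjusted P of at most 0.05, which 13.5% of all genes did in the same fit. For *Irs2* the interaction was 2.43 on the log2 scale (limma, P = 0.0124, adjusted P = 0.338). Below 150 its mean was 63.5 for 5 *b6/b6* and 12.7 for 7 *cast/cast* mice, and above 150 it was 8.84 for 7 *b6/b6* and 14.4 for 5 *cast/cast* mice. The *b6/b6* mice 6 and 12, with high cortex and blood marker sums, are both below 150, and without them the interaction was 1.28 (P = 0.133, adjusted P = 0.716).

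For *Mc3r* the interaction was -0.90 (limma, P = 0.0381, adjusted P = 0.360). Its means were 185.7 for *b6/b6* and 246.5 for *cast/cast* mice below 150, and 383.0 and 252.4 above 150. Without *b6/b6* mice 6 and 12 the interaction was -0.83 (P = 0.0849, adjusted P = 0.716). Neither interaction passed the adjustment over all genes.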

How the results depend on the processing

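Under 14 alternatives (13 for *Lepr*, which a minimum mean of 20 left out), 114 of 139 log2 fold changes of members kept their direction and their side of the threshold. *Lepr*, *Insr*, *Npy1r* and *Npy5r* kept their direction in all of those run. *Npy1r* was called without the 5 mice at one end of the first component (-0.96) and without those and *b6/b6* mice 6 and 12 (-0.96), so that 1 member was called under each. Both settings leave out the highest *cast/cast* values of *Npy1r*, so these calls describe and do not test. *Mc4r*, at 0.00 with all mice, was -0.00 with a pseudocount of 5, -0.09 with rescaled libraries, -0.04 with edgeR and with DESeq2, -0.29 above study number 150, and -0.11 without *b6/b6* mice 6 and 12, without all 7 mice and with 2 components as covariates. *Socs3*, at -0.01, was 0.01 with a pseudocount of 5, 0.09 with edgeR, DESeq2 and the study number as covariate, 0.38 below 150, 0.41 without the 5 mice and 0.28 without the 7. *Mc3r* was 0.33 below 150, *Stat3* -0.03 with rescaled libraries (which moved the median of all genes from -0.02 to -0.11), and *Ptpn1* 0.06 without the 5 mice and 0.20 without the 7. *Irs2* was 0.75 above 150, 0.29 without *b6/b6* mice 6 and 12, 0.35 without the 7 and 0.59 with 2 components. DESeq2 replaced 1 count of *Irs2* by its own rule. The cause of these changes was not tested.

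Among the 88 pathway genes, where 1 was called, edgeR called 4, DESeq2 6, the fit with the study number 5, the fits without the 5 and the 7 mice 4 and 3, and P of at most 0.05 alone gave 10. The number was 0 above study number 150, without *b6/b6* mice 6 and 12, with 2 components, and at an adjusted P of at most 0.05. Of all genes 208 (1.49%) were called with limma, 391 (2.79%) with edgeR, 395 (2.82%) with DESeq2, 312 (2.23%) with the study number and 160 (1.14%) with 2 components. The number was 457 (3.27%) below and 153 (1.1%) above 150, and 137 (0.982%) without *b6/b6* mice 6 and 12. It was 671 (4.79%) without the 5 mice and 697 (5%) without the 7. The share of the 88 was above that of all genes with edgeR, DESeq2 and the study number and below it in the other fits listed, with no test made. With rescaled libraries the calls were 43 higher and 187 lower, against 66 and 142. The 2 interactions at an unadjusted P of at most 0.05 became 0 without *b6/b6* mice 6 and 12. With Spearman's rho and total kcal, a setting that was not planned, 1 intake relation passed, against 0. No paired analysis was possible because the replicate numbers were given in accession order and pair no mice.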
